A study of Rattus norvegicus with 24 samples.

Results

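The hypertrophic zone of the rat growth plate was compared with the proliferative-hypertrophic transition zone that lies next to it, over all probe sets that are not controls. Arrays were taken by their titles: 5 name the hypertrophic zone and 5 the transition zone, which makes 10 of the 24 arrays of the study, and by their descriptions each zone has 1 array from each of the same 5 numbered animals. The study profiled zones of the proximal tibial growth plate with Affymetrix arrays, and its title concerns Indian hedgehog signalling. The rats were 1 week old and not castrated, and the cartilage was cut by hand from stained frozen sections of 60 µm. Between 50 and 100 ng of total RNA per sample was amplified before labelling. The hypertrophic labels name male rats, as those of the resting and proliferative arrays do. The transition labels share their wording with the epiphyseal arrays and give no sex, so anything that went with the wording cannot be told apart from the zone.

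In the growth plate, columns of dividing chondrocytes leave the cell cycle in the transition zone and enlarge as hypertrophic chondrocytes. Hypertrophic cells secrete type X collagen, mineralize their matrix and border on the marrow, where blood vessels, osteoclasts and bone-forming cells invade the cartilage. Indian hedgehog, made by cells entering hypertrophy, acts on the dividing cells and holds back their maturation through parathyroid hormone-related protein.

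Values are MAS5 signals, the brightness of a probe set after scaling of each array. Fold changes are differences of log2(signal + 16), hypertrophic minus transition, with the standard error (SE) of a limma fit that keeps the animal as a block. Calls required 2-fold or more together with a Benjamini-Hochberg adjusted p under 0.05, and "rose" and "fell" are used of such calls, for the hypertrophic zone relative to the transition zone. Adding 16 understates the change of dim genes, and no detection p-values were used, so whether the dimmest signals lie above background is not known here.

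Of 19213 probe sets tested, 1303 (6.78%) rose and 478 (2.49%) fell in the hypertrophic zone, which together are 9.27%. With 1 probe set per gene, 787 of 10558 genes rose (7.45%) and 256 fell (2.42%). Among them 728 of the risen and 228 of the fallen genes moved the same way in 5 of 5 animals, and 27 rose but 3 fell by more than 8-fold. Probe sets were tested where they exceeded the array median in at least 4 arrays, and 109 of the 787 risen genes met this only through the hypertrophic arrays, where they had to be high. Of the genes named below these are Cdh2, Cfap100, Col18a1, Hey1, Mepe, Phex, Psmb8, Psmb9 and Ptprz1. Of the calls 73.2% were rises. That balance rests on the scaling: with arrays brought to one median, 880 probe sets rose and 1163 fell (43.1% rises), and with quantile normalization 1013 rose and 653 fell (60.8%). Bringing arrays to one median moved the median log2 difference over all probe sets to -0.241, against 0.016 as deposited, and the array median itself was 180 ± 21.0 (SD, n = 5) in hypertrophic and 149 ± 14.7 (n = 5) in transition arrays.

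**Figure D1:**
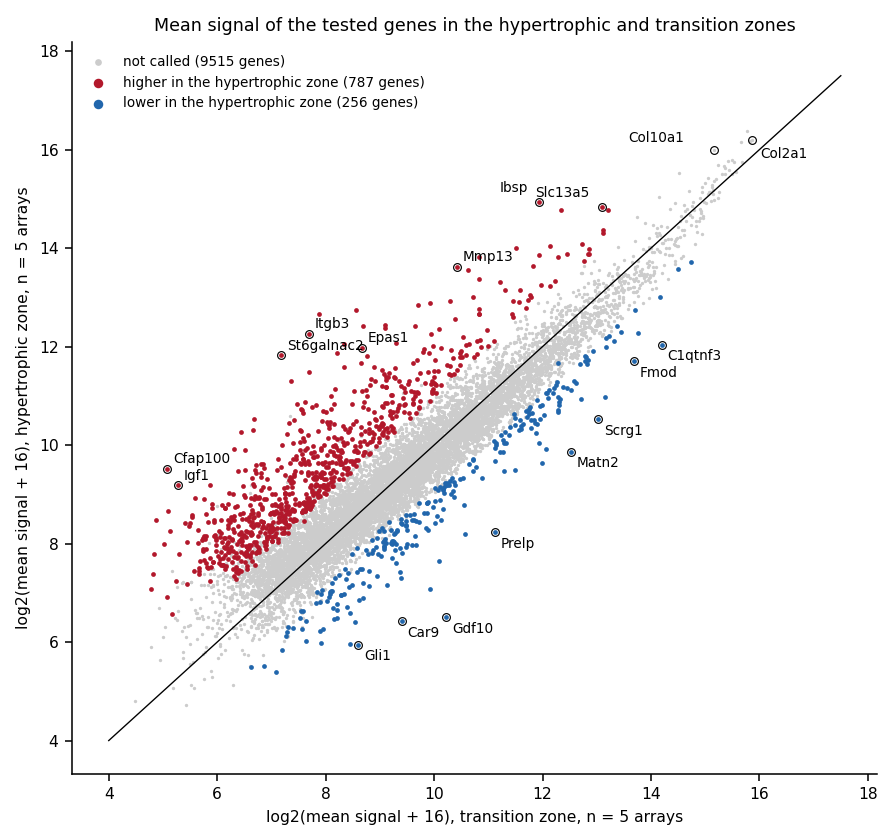
Mean signal of each of the 10558 tested genes in the hypertrophic zone (vertical axis) against the transition zone (horizontal axis), as log2(mean signal + 16) over 5 arrays each, with the line of equality. The 787 genes that rose lie above the line, the 256 that fell lie below it, and Col2a1 and Col10a1 sit near the line at the bright end.

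The first principal component of the 10 arrays held 37.6% of the variance and separated the zones. Scores were 49.8 to 63.7 in hypertrophic arrays except that of animal 3, at 8.5, and below 0 in all transition arrays. Hypertrophic arrays differed more among themselves, at a median root mean square difference of 0.80 on the log2 scale (10 pairs), than transition arrays did, at 0.66 (10 pairs). On the second component (12.7% of the variance) the hypertrophic arrays of animals 4 and 1 lay apart on opposite sides, at 64 and -51.8, with the other arrays between -18.6 and 16.1, and on the third that of animal 5 lay apart, at -66.2. Results that rest on the hypertrophic array of animal 4 are given with and without it. Animals 1, 3 and 5 were each left out with both of their arrays. Without animal 3, 1331 probe sets rose and 598 fell. RNA quality, read as the log2 ratio of 3' to 5' Gapdh signal, was 2.96 ± 0.54 (SD, n = 5) in hypertrophic and 2.57 ± 0.33 (n = 5) in transition arrays (two-sided exact sign-flip permutation p = 0.25). The same ratio for beta-actin ran the other way, at 4.31 ± 0.30 in hypertrophic and 4.46 ± 0.19 in transition arrays (sign-flip permutation p = 0.3125). The smallest p that 5 animals allow in this test is 0.0625. The 6 defining chondrocyte markers tested, Col2a1, Acan, Col11a1, Col9a1, Hapln1 and Matn1, were bright in both zones, none was called, and their median log2 fold change was 0.20 (-0.07 with arrays brought to one median). Matn1, a cartilage matrilin, was lower by under 2-fold (-0.90, limma, adjusted p = 0.00392), and passed 2-fold with arrays brought to one median (-1.17) or without animal 3 (-1.04).

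Markers of several other cell types moved with the hypertrophic zone. Of 12 erythroid genes tested 9 rose, of 16 myeloid genes 14 and of 15 osteoclast and macrophage genes 8. Of 10 osteoblast genes 9 rose, of 12 endothelial genes 3 and of 7 megakaryocyte genes 4. No gene of these lists fell, where 7.45% of all genes rose and 2.42% fell. Of the 14 risen myeloid genes 8, of the 9 risen osteoblast genes 7 and of the 4 risen megakaryocyte genes 3 would have been tested without the hypertrophic arrays. Itgb3, which rose, is counted on both the osteoclast and the megakaryocyte list, and Vwf is on both the endothelial and the megakaryocyte list. Median log2 fold changes of the 6 lists were 2.43, 2.17, 1.68, 2.46, 1.23 and 1.40, against -0.01 over all genes. Of 3 lymphoid and 4 adipocyte genes tested none was called by limma, with 1 and 2 at an unadjusted p under 0.05 and medians of 0.61 and 0.74, and of 5 nerve and Schwann cell genes 1 rose, with a median of 0.38. The summed signal of the erythroid list ran between 19719 and 54181 in hypertrophic arrays and between 6562 and 13421 in transition arrays, and that of the myeloid list between 6456 and 22468 against 1470 and 4247. For osteoclast and macrophage genes the sums were 15077 to 92099 in hypertrophic arrays and 3868 to 5820 in transition arrays, and for osteoblast genes 61067 to 190413 against 12172 to 21837. The lowest signal of any of these markers in the 10 arrays was above 0, but without detection p-values this does not show that they were detected. Without the hypertrophic array of animal 4 the counts were 9, 12, 7, 8, 3 and 4, and the median of the osteoclast list was 1.05. In whole tissue, fewer cells of a type and less RNA per cell cannot be told apart, and the part of these cells in the gene changes below was not tested.

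**Figure D2:**
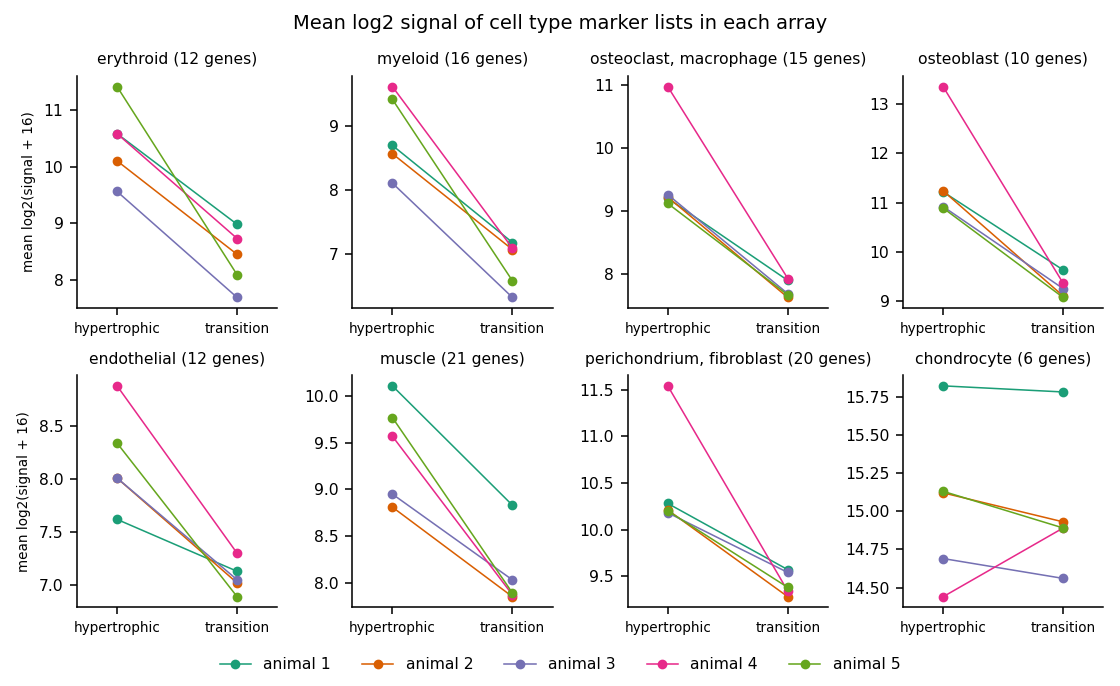
Mean log2(signal + 16) of 8 cell type marker lists in each array, hypertrophic on the left and transition on the right, with a line for each animal. The hypertrophic array of animal 4 is the highest for osteoclast (10.97), osteoblast (13.36), perichondrium (11.54), myeloid (9.62) and endothelial markers (8.88). It is the lowest for chondrocyte markers (14.44).

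Of 6 genes listed as markers of hypertrophic chondrocytes, 2, Alpl and Mmp13, rose, where 7.45% of all genes did. The other 4, Col10a1, Ihh, Pth1r and Panx3, were not called. Col10a1, the type X collagen of hypertrophic cartilage, had signals of 118264, 64624, 35544, 46026 and 63170 in the hypertrophic arrays of animals 1 to 5, against 55989, 39484, 23885, 30696 and 33560 in the transition arrays. It was higher in the hypertrophic array of 5 of 5 animals but the groups overlapped, and the log2 fold change of 0.77 ± 0.46 did not pass (limma, adjusted p = 0.249). With only the 10 arrays of both zones in the fit, in place of all 24, the same value had an adjusted p of 0.00322, still under 2-fold, and over the other alternatives the adjusted p ran between 0.214 and 0.531. Over the zones its mean was 8505 ± 4778 (SD, n = 4) in epiphyseal cartilage, 823 ± 754 (n = 5) in the resting, 2626 ± 1809 in the proliferative, 36723 ± 12145 in the transition and 65526 ± 31886 in the hypertrophic zone. Ihh, the hedgehog ligand itself, had signals of 12716, 10515, 10934, 6204 and 11682 in hypertrophic and 8368, 7101, 6746, 7049 and 12160 in transition arrays. Those groups overlapped too, and animals 4 and 5 ran the other way (0.32 ± 0.40, adjusted p = 0.614). Pth1r, the receptor for parathyroid hormone-related protein, differed by 0.45 ± 0.16 (adjusted p = 0.0524), Panx3, a pannexin channel of maturing chondrocytes, by 0.08 ± 0.28 (adjusted p = 0.883), and Mef2c, a transcription factor that drives hypertrophy, by -0.12 ± 0.16 (adjusted p = 0.644).

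Of the 24 tested members of the wider hypertrophy list 9 rose and 1 fell, where 7.45% of all genes rose and 2.42% fell. The median was 0.54, and the counts were the same without the hypertrophic array of animal 4. Slc13a5, a sodium-coupled citrate transporter, had signals of 39829, 31896, 18683, 24749 and 30865 in hypertrophic arrays, against 9814, 9896, 6102, 9391 and 8231 in transition arrays. Every hypertrophic array lay above every transition array, and the log2 fold change was 1.72 ± 0.17 (limma, adjusted p = 8.66e-08). Foxa2, a forkhead factor of hypertrophic chondrocytes, rose by 1.58 ± 0.18, Dlx3, a homeobox factor of bone and tooth, by 1.85 ± 0.27, and F13a1, the catalytic subunit of transglutaminase factor XIII, by 2.28 ± 0.31 (adjusted p = 7.17e-06). Alpl, the phosphatase that frees phosphate for mineral, averaged 7634 ± 1186 (SD, n = 5) in the hypertrophic zone and 3024 ± 713 (n = 5) in the transition zone, a rise of 1.35 ± 0.33 (adjusted p = 0.00423). Grem1, a secreted antagonist of bone morphogenetic proteins, rose by 1.74 ± 0.39 (adjusted p = 0.00214). The member that fell was Runx3, a Runt-domain factor needed for chondrocyte maturation. It had signals of 887, 1079, 1949, 1443 and 1299 in hypertrophic arrays and 2319, 2556, 4380, 3560 and 2571 in transition arrays, which did not overlap (-1.21 ± 0.17, adjusted p = 1.16e-05). A second, dimmer probe set of Runx3 did not pass, at -0.21 (adjusted p = 0.605). Thrb, a thyroid hormone receptor, rose by 1.21 ± 0.17 (adjusted p = 1.43e-05), which was under 2-fold with arrays brought to one median (0.94). Its other 2 probe sets were not called.

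Ibsp, Mepe, Spp1 and Dmp1 encode secreted acidic phosphoproteins of bone and tooth, and in the rat gene table of assembly GRCr8 they lie next to each other in the order Spp1, Mepe, Ibsp, Dmp1 with only long non-coding RNA genes between them. Their promoters are shown because these neighbours all rose. The windows are RefSeq sequence of build GRCr8, 250 bases before and 50 after the annotated start, read 5′ to 3′ on the gene's strand. They lie at chr14:5757193-5757492 for Ibsp, chr14:5736809-5737108 for Mepe, chr14:5619755-5620054 for Spp1 and chr14:5840035-5840334 for Dmp1, all on the minus strand. Capitals mark matches to 3 motifs searched on both strands. The first, the core of the hypoxia response element, is ACGTG, which reads CACGT on the opposite strand. The second, a Runx core, is TGTGGT, which reads ACCACA on the opposite strand. The third, the AP-1 element, is TGACTCA, which reads TGAGTCA on the opposite strand. The matches shown do not overlap each other.
Ibsp: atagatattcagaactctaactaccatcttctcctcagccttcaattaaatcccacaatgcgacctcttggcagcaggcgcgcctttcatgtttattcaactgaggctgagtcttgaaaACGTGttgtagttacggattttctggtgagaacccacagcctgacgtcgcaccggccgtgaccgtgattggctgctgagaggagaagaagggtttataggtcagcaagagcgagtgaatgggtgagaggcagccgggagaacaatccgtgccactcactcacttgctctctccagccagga
Mepe: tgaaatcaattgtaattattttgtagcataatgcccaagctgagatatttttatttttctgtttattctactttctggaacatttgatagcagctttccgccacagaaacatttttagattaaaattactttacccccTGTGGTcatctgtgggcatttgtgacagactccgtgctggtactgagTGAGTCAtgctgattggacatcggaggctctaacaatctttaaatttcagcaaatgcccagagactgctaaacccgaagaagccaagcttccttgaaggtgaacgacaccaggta
Spp1: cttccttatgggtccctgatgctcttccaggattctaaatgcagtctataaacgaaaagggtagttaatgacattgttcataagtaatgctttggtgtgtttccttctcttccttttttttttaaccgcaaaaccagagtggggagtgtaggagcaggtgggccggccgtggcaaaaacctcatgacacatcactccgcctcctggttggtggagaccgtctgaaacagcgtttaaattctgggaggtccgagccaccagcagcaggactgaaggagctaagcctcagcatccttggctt
Dmp1: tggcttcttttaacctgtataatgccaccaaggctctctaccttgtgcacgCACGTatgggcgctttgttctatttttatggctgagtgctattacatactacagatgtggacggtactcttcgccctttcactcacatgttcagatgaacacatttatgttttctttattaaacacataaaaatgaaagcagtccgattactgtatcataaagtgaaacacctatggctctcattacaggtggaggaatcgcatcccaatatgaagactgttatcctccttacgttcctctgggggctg
Ibsp and Dmp1 held 1 match to ACGTG each, Mepe 1 match each to TGTGGT and TGACTCA, and the Spp1 window none of these letters. Over all 27457 promoter windows of this length, 19.7% held ACGTG, 16.9% TGTGGT and 4.53% TGACTCA. Among the 8839 windows of tested genes the shares were 26%, 12.2% and 3.37%.

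Ibsp, bone sialoprotein, had signals of 40877, 36879, 20442, 33551 and 25412 in the hypertrophic arrays of animals 1 to 5, against 6228, 3300, 3030, 3461 and 3426 in the transition arrays. The groups were far apart in every animal, and the log2 fold change was 3.02 ± 0.39 (limma, adjusted p = 4.81e-06). Mepe, a matrix phosphoglycoprotein, had signals of 500, 624, 196, 1063 and 494 in hypertrophic and 56.6, 90.2, 7.7, 118 and 151 in transition arrays, which did not overlap, though the filter was passed only through the hypertrophic arrays (2.64 ± 0.42, adjusted p = 5.63e-05). Spp1, osteopontin, had signals of 1625, 1092, 1181, 21853 and 1416 in hypertrophic and 409, 318, 534, 474 and 239 in transition arrays. One hypertrophic array, that of animal 4, was more than 10 times as bright as the others. The change of Spp1 was 2.55 ± 0.53 (adjusted p = 0.00104), and 1.68 (adjusted p = 0.000347) without that array. Dmp1, a matrix protein best known from osteocytes, had signals of 703, 1076, 367, 11406 and 714 in hypertrophic and 121, 83.1, 450, 188 and 108 in transition arrays. Animal 3 ran the other way and animal 4 was again the brightest, at 2.79 ± 0.55 (adjusted p = 0.000605) with all arrays and 1.96 (adjusted p = 0.000622) without the hypertrophic array of animal 4. Without animal 3 it was 3.56 (adjusted p = 7.43e-05).

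Of the 18 mineralization genes tested 7 rose and none fell, with a median of 0.31, where 7.45% of all genes rose and 2.42% fell. Without the hypertrophic array of animal 4, 7 rose and 1 fell, and with arrays brought to one median 6 rose and 1 fell, with a median of 0.04. The other risen members were Alpl, Phex and Slc20a1. Phex, an endopeptidase that restrains mineralization inhibitors, ranged between 110 and 3707 in hypertrophic arrays and between 41.3 and 105 in transition arrays, and its change of 2.15 ± 0.60 (adjusted p = 0.0107) was 1.26 (adjusted p = 0.0416) without that array. Slc20a1, a phosphate transporter, rose by 1.13 ± 0.17 (adjusted p = 3.04e-05), was under 2-fold with arrays brought to one median (0.86), and just missed it without animal 5 (1.00). Phospho1, a phosphatase of matrix vesicles that starts mineral formation, averaged 5075 ± 1696 (SD, n = 5) in the hypertrophic and 4900 ± 1093 (n = 5) in the transition zone (0.02 ± 0.23, adjusted p = 0.961). Mgp, an inhibitor of mineralization, was lower in the hypertrophic array of 5 of 5 animals at just under 2-fold (-0.96 ± 0.18, adjusted p = 0.000283). It passed 2-fold, at -1.23, with arrays brought to one median, and also without animal 1 or the hypertrophic array of animal 4. Of the 10 osteoblast markers, 6 are also on the mineralization list, and these 6 are among the rises counted in both.

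**Figure D3:**
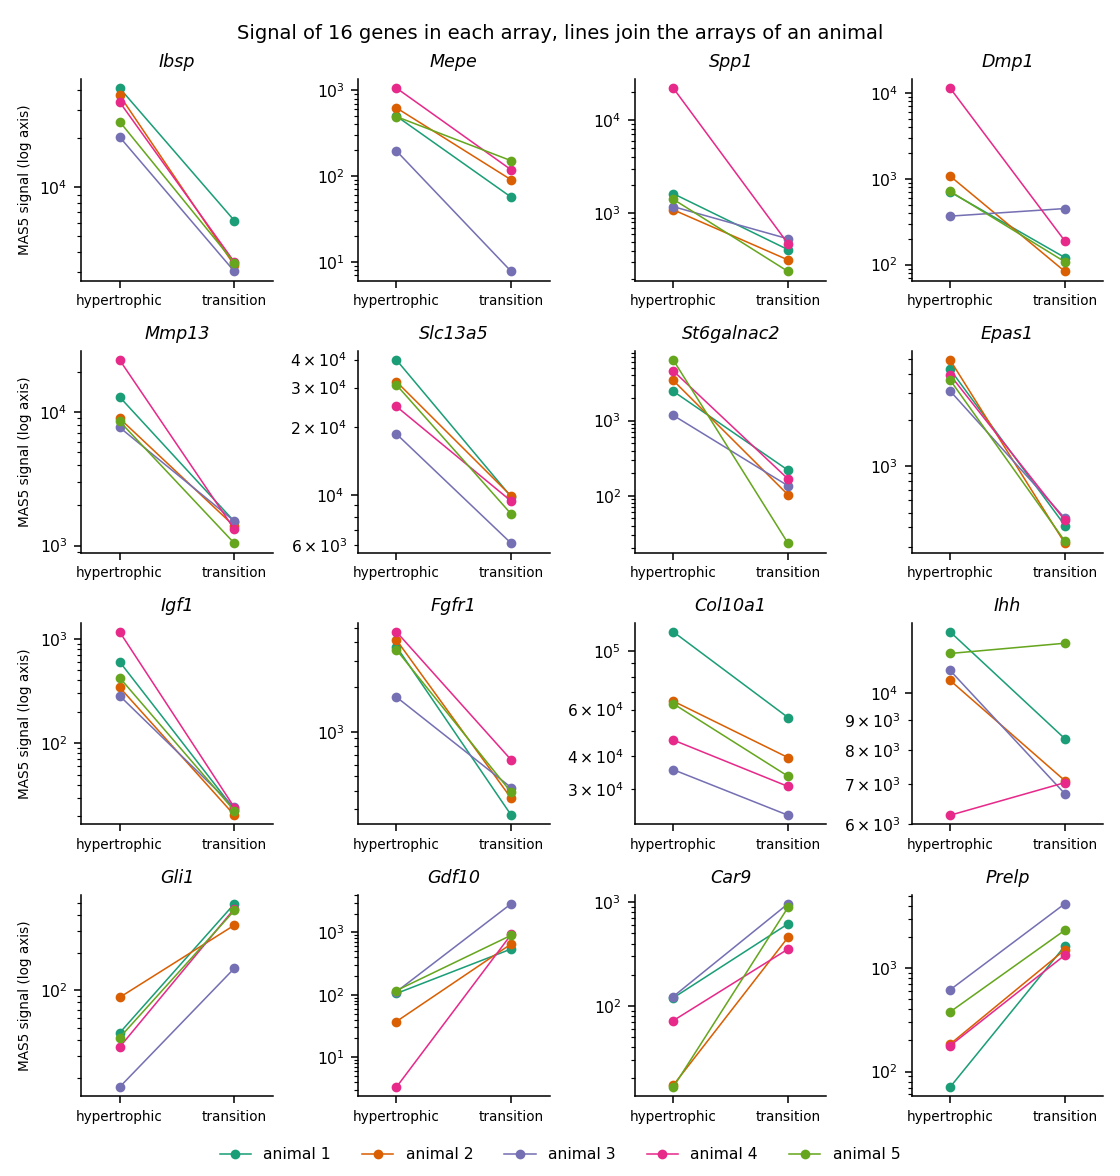
MAS5 signal of 16 genes in each array on a log axis, hypertrophic on the left and transition on the right, with a line for each animal. Ibsp, Mepe, Spp1, Mmp13, Slc13a5, St6galnac2, Epas1, Igf1 and Fgfr1 are higher in every hypertrophic array than in any transition array. Gli1, Gdf10, Car9 and Prelp are lower, and Dmp1, Col10a1 and Ihh overlap.

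Of 23 proteases and protease inhibitors tested, 7 rose and none fell, where 7.45% of all genes rose and 2.42% fell. The list median was 0.86. Without the hypertrophic array of animal 4, 6 rose and 1 fell, with a median of 0.42. Mmp13, the collagenase that opens the hypertrophic matrix, had signals of 13034, 8995, 7704, 24692 and 8554 in hypertrophic arrays, against 1513, 1394, 1523, 1322 and 1038 in transition arrays. The zones did not overlap (3.06 ± 0.64, limma, adjusted p = 0.00118). Mmp9, a gelatinase of osteoclasts and vascular cells, had signals of 4985, 2668, 5080, 11697 and 3122 in hypertrophic and 729, 629, 566, 345 and 377 in transition arrays (3.19 ± 0.73, adjusted p = 0.00254), and 2.59 (adjusted p = 0.0104) without the hypertrophic array of animal 4. Both genes were also bright in some epiphyseal arrays, where Mmp13 averaged 16608 ± 17250 and Mmp9 11217 ± 12249 (SD, n = 4). Timp3, a metalloproteinase inhibitor bound to matrix, averaged 12050 ± 3397 (SD, n = 5) in the hypertrophic zone and 1558 ± 496 (n = 5) in the transition zone, and its 3 probe sets rose by 2.95 ± 0.24 (adjusted p = 6.62e-09), 3.24 and 2.74. Serpine2, a serine protease inhibitor, rose by 2.96 ± 0.33 and Adamts1, which cleaves proteoglycans, by 2.39 ± 0.29 (adjusted p = 2.33e-06).

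Of 20 genes of the structural matrix of cartilage 1 rose and 2 fell, where 9.88% of all genes were called in either direction, with a median of 0.12 that turned to -0.15 with arrays brought to one median. Col2a1, the main collagen of cartilage, averaged 74791 ± 37912 (SD, n = 5) in the hypertrophic and 59868 ± 27398 (n = 5) in the transition zone, and Acan, its main proteoglycan, 43651 ± 13439 and 33982 ± 9119 in the same order. Neither was called, at 0.29 ± 0.21 (adjusted p = 0.354) and 0.34 ± 0.17 (adjusted p = 0.165). Of the other 2 probe sets of Col2a1, the dimmest, with means of 3833 in hypertrophic and 1775 in transition arrays, rose by 1.17 (adjusted p = 0.00759), and the other did not pass (0.11, adjusted p = 0.703). Matn2, an adaptor protein of the filamentous matrix, had signals of 762, 864, 1781, 535 and 655 in hypertrophic arrays, against 5332, 5762, 6350, 5142 and 6730 in transition arrays. All hypertrophic arrays were far below, at -2.78 ± 0.21 (adjusted p = 1.37e-09). Ucma, a small protein of resting and proliferating cartilage, fell by 1.32 ± 0.23 (adjusted p = 0.000186). Tnc, a matrix glycoprotein of perichondrium and repair tissue, rose by 2.79 ± 0.60 (adjusted p = 0.0014), with 5992 in the hypertrophic array of animal 4 and 512 to 1138 in the others, and by 2.19 without that array.

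Small leucine-rich proteoglycans, which bind collagen fibrils and growth factors, had 4 members down and 1 up of 10 tested. Over all genes 2.42% fell and 7.45% rose. The list median was -0.47, with the same counts under both scalings and without the hypertrophic array of animal 4. Prelp, which anchors basement membranes to connective tissue, had signals of 70.6, 184, 617, 178 and 378 in hypertrophic arrays and 1646, 1512, 4215, 1340 and 2337 in transition arrays. Each hypertrophic array was below every transition array (-3.06 ± 0.27, limma, adjusted p = 2.38e-08). Omd, osteomodulin, had signals of 421, 262, 1764, 1121 and 337 in hypertrophic and 2516, 2383, 6527, 3404 and 5326 in transition arrays, again without overlap (-2.61 ± 0.31, adjusted p = 1.38e-06). Fmod, fibromodulin, fell by 2.01 ± 0.20 (adjusted p = 9.25e-08), to a mean of 3328 ± 1215 (SD, n = 5) in hypertrophic arrays against 13087 ± 3542 (n = 5) in transition arrays. Ogn, osteoglycin, fell by 1.77 ± 0.31 (adjusted p = 0.000199), with animal 4 running the other way. Dcn, decorin, rose instead, by 1.95 ± 0.31 (adjusted p = 5.69e-05).

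Collagens outside the cartilage set had 8 of 15 tested genes up and 1 down, where 7.45% of all genes rose and 2.42% fell. The list median was 1.52. Without the hypertrophic array of animal 4 the counts were 9 and 1, with a median of 1.17. Col1a1 and Col1a2, the chains of bone collagen, rose by 2.64 ± 0.40 (adjusted p = 3.46e-05) and 2.36 ± 0.26 (adjusted p = 6.54e-07). Col1a2 had signals of 25229, 18441, 20650, 51401 and 23519 in hypertrophic arrays, against 6948, 3177, 5054, 4964 and 5767 in transition arrays, and the zones did not overlap. Col13a1, a transmembrane collagen, had signals of 1306, 2415, 1150, 4583 and 3121 in hypertrophic and 78.3, 75.5, 211, 220 and 154 in transition arrays (3.88 ± 0.70, adjusted p = 0.000234). Col18a1, whose fragment endostatin inhibits vessel growth, rose by 2.45 ± 0.49 (adjusted p = 0.000779). Col5a2, Col3a1 and Col22a1 rose by 2.18 ± 0.51, 2.29 ± 0.58 and 1.67 ± 0.44, and by 1.50, 1.52 and 1.02 without the hypertrophic array of animal 4. Col6a1 passed narrowly, at 1.01 ± 0.18, and was under 2-fold with arrays brought to one median (0.74) or without animal 2 (0.95), animal 5 (0.96) or the transition array of animal 5 (0.97). Col12a1, a fibril-associated collagen, fell by 1.32 ± 0.32 (adjusted p = 0.00399). That call was lost without animal 5 (-0.92, adjusted p = 0.067), and without animal 4 the value was -1.92. Its second probe set did not pass (-0.53, adjusted p = 0.425). Of 10 osteoblast markers 9 rose and of 20 perichondrium markers 7, and 2 and 4 of these are collagens already counted here, which leaves 7 and 3 others.

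The largest rises over all genes included genes of mixed function. St6galnac2, which adds sialic acid to glycoproteins, had signals of 2452, 3417, 1174, 4576 and 6402 in hypertrophic arrays, against 219, 103, 136, 167 and 23.3 in transition arrays. No array overlapped, and the change was 4.64 ± 0.41 (limma, adjusted p = 2.48e-08), or 3.97 without animal 5. Cfap100, a protein of motile cilia, had signals of 546, 757, 306, 813 and 1146 in hypertrophic and 61.1, 6.8, 14.5, 3.4 and 2.6 in transition arrays (4.55 ± 0.57). It passed the filter only through its hypertrophic arrays. Ero1b, an oxidase that forms disulphide bonds in the endoplasmic reticulum, had 1485, 1183, 744, 1161 and 1516 in hypertrophic and 34.8, 119, 65.6, 115 and 17.2 in transition arrays (3.99 ± 0.37, adjusted p = 3.83e-08). These 3 genes averaged between 24.2 and 279 in the proliferative zone, whose labels share their wording with the hypertrophic arrays, and the hypertrophic minus proliferative differences were 3.54, 4.18 and 3.87. Medag, first described in fat tissue, rose by 3.74 ± 0.34 (adjusted p = 2.85e-08) and by 3.22 on a second probe set. Ptprz1, a receptor tyrosine phosphatase, rose by 3.26 ± 0.46, Myzap, a junction protein of heart, by 3.33 ± 0.47, Myl3, a slow muscle myosin chain, by 3.32 ± 0.41, and Steap4, a metalloreductase, by 3.26 ± 0.70. Steap4 was brightest in the hypertrophic array of animal 4, at 4341 against 321 to 1479 in the others, and rose by 2.43 (adjusted p = 0.00505) without it. Itgb3, the integrin beta chain of osteoclasts and platelets, rose by 4.40 ± 0.59, and Acp5, the tartrate-resistant phosphatase of osteoclasts, by 3.61 ± 0.81 (adjusted p = 0.002). Acp5 had 26297 in the hypertrophic array of animal 4 and 960 to 1969 in the others, and rose by 2.62 (adjusted p = 0.00652) without it.

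By the brightest probe set of each gene, the largest fall among called genes was that of Gdf10, a growth factor of the TGF-beta family. It had signals of 105, 37.2, 112, 3.3 and 117 in hypertrophic arrays, against 543, 654, 2887, 930 and 901 in transition arrays. All transition arrays were higher, and the change was -3.75 ± 0.36 (limma, adjusted p = 6.38e-08). Its mean was 325 ± 85.9 (SD, n = 5) in the resting, 5086 ± 934 in the proliferative, 1183 ± 967 in the transition and 74.8 ± 51.4 in the hypertrophic zone. Kctd4, a potassium channel tetramerization domain protein, had 133, 55.2, 169, 121 and 121 in hypertrophic and 603, 948, 1334, 1013 and 855 in transition arrays (-2.85 ± 0.20, adjusted p = 5.35e-10), and its second probe set fell by 3.98. Scrg1, a secreted protein of cartilage, had 2018, 1756, 1824, 723 and 967 in hypertrophic and 7469, 6030, 12245, 9286 and 6693 in transition arrays. It averaged between 8344 and 11511 in each of the other zones, and fell by 2.56 ± 0.21 (adjusted p = 1.07e-08). Car8, a carbonic anhydrase-related protein without catalytic activity, averaged 2001 ± 1130 (SD, n = 5) in the hypertrophic and 9131 ± 819 (n = 5) in the transition zone (-2.32 ± 0.28). C1qtnf3, a secreted protein of chondrocytes, averaged 4197 ± 2594 and 18811 ± 2624 in the same order (-2.32 ± 0.21). Fabp6, a bile acid binding protein, fell by 2.68 ± 0.51, Hspa12a, a divergent heat shock protein, by 2.42 ± 0.31, Moxd1, a monooxygenase-like protein, by 2.39 ± 0.26, and the uncharacterized locus LOC102553043 by 2.25 ± 0.38.

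In the hedgehog and parathyroid hormone-related protein list, 1 of 12 tested genes rose and 1 fell, where 7.45% of all genes rose and 2.42% fell. Gli1, a transcription factor induced by hedgehog signals, had signals of 45.7, 87.8, 16.9, 35.2 and 41.9 in hypertrophic arrays, against 491, 332, 150, 449 and 434 in transition arrays. The groups did not overlap and the change was -2.65 ± 0.31 (limma, adjusted p = 1.26e-06). Boc, a hedgehog co-receptor, rose by 1.17 ± 0.29 (adjusted p = 0.00541), in 4 of 5 animals. The Boc call was lost with arrays brought to one median (0.91), with array weights, without animal 5 (0.67, adjusted p = 0.0669) and without the transition array of animal 5 (0.78). Between the same zones Ihh did not pass the test, as given above, while Gli1 fell in 5 of 5 animals.

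Among growth factor systems the insulin-like growth factor list had 7 of 16 tested genes up and 1 down, with a median of 0.91. Over all genes 7.45% rose and 2.42% fell. With arrays brought to one median 5 genes of the list rose and 2 fell. Igf1, the ligand itself, had signals of 604, 343, 285, 1168 and 425 in hypertrophic arrays and between 20.4 and 24.3 in transition arrays. All hypertrophic arrays were more than 10 times as bright, and the change was 3.72 ± 0.55 (limma, adjusted p = 2.53e-05). A second probe set did not pass, at 1.09 (adjusted p = 0.132). Binding proteins made up 5 of the 7 rises. Igfbp7 rose by 1.64 ± 0.46 (adjusted p = 0.0113), and Igfbp5 by 1.61 ± 0.41 (adjusted p = 0.0062) with its other 3 probe sets between 1.27 and 1.61. Igfbp5 was lost without animal 5 (0.92, adjusted p = 0.0784). Igfbp6 rose by 1.42 ± 0.34 and was lost without animal 4 (0.91), and Igfbp4 by 1.23 ± 0.34 and was lost with one median (0.98), without animal 5 (0.92, adjusted p = 0.0834) and without its transition array (0.89). Igfbp3 and Stc2, which inhibits cleavage of IGF-binding proteins, passed narrowly (adjusted p = 0.0323 and 0.0491) and lost the call in 8 and 12 of 17 alternatives, Igfbp3 without animals 1, 3 or 4 (1.07) or the hypertrophic array of animal 4 (1.17) among them and Stc2 without animals 1, 2 or 3 or the transition array of animal 5. Irs1, the docking protein of insulin and IGF receptors, fell by 1.01 ± 0.24 (adjusted p = 0.00392), which was under 2-fold without animals 2 (-0.88), 4 (-0.94) or 5 (-0.98), the hypertrophic array of animal 4 (-0.84) or the transition array of animal 5 (-0.95). Igf2, a fetal growth ligand, averaged 33262 ± 12331 (SD, n = 5) in the hypertrophic and 38452 ± 16508 (n = 5) in the transition zone, and was not called (-0.19 ± 0.20, adjusted p = 0.535). Igf1r, its signalling receptor, was lower without overlap but by under 2-fold (-0.68 ± 0.18, adjusted p = 0.00848).

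Fibroblast growth factor genes had 2 of 10 tested up and 2 down, where 7.45% of all genes rose and 2.42% fell. Fgfr1, the receptor that chondrocytes express late in maturation, had signals of 3748, 4160, 1713, 4716 and 3568 in hypertrophic arrays, against 273, 354, 419, 644 and 390 in transition arrays. It rose without overlap by 3.04 ± 0.21 (limma, adjusted p = 5.35e-10), and by 2.97 on a second probe set. Fgfr3, the receptor that restrains growth plate chondrocytes, averaged 27920 ± 7815 (SD, n = 5) in the hypertrophic and 28459 ± 7245 (n = 5) in the transition zone (-0.04 ± 0.17, adjusted p = 0.888). Dusp6, a phosphatase induced by FGF signals, rose by 1.57 ± 0.40, with 1 of its other 2 probe sets not called, and Frs2, the docking protein of FGF receptors, fell by 1.16 ± 0.13 (adjusted p = 1.09e-06). Fgfr4 fell by 1.31 ± 0.31, and was under 2-fold without animal 4 or its hypertrophic array alone (both -0.94).

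Of 38 genes of bone morphogenetic protein and TGF-beta signalling 4 rose and 4 fell, where 7.45% of all genes rose and 2.42% fell. The rises were Bmp1, a protease that matures collagens, by 2.14 ± 0.14 (limma, adjusted p = 3.43e-10), Smad3, a signal carrier of TGF-beta, by 1.65 ± 0.22, Grem1, and Bmp3 by 1.30 ± 0.42. Bmp1 had 3626, 4002, 2549, 4911 and 4672 in hypertrophic and 913, 927, 636, 1200 and 743 in transition arrays, without overlap, while its dimmer probe set did not pass (0.87, adjusted p = 0.345). Bmp3 lost its call in 9 of 18 alternatives, without animals 4 (0.84) or 5 (1.19), the hypertrophic array of animal 4 (0.68, adjusted p = 0.107) or the transition array of animal 5 (1.08) among them. Besides Gdf10, the falls were Bmper, a binding regulator of bone morphogenetic proteins, by 2.23 ± 0.33, Smoc1, a secreted inhibitor, by 1.24 ± 0.20, and Smad9 by 1.01 ± 0.25, which was under 2-fold without animal 1 (-0.87) or animal 2 (-0.94) and just missed it without the transition array of animal 5. Bmp2, a ligand that promotes maturation, was not called at 0.55 ± 0.19 (adjusted p = 0.0336). Of 26 Wnt genes 2 rose, a share near the 7.45% of all genes, and none fell, but 3 fell with arrays brought to one median and 2 with quantile normalization, without animals 1 or 5 or without the transition array of animal 5. The rises were Tcf7l2, a transcription factor of the pathway, by 1.55 ± 0.14 with its 5 probe sets between 1.40 and 1.97, and Lrp4, a receptor that binds sclerostin, by 2.85 ± 0.30 (adjusted p = 2.22e-07). Lrp4 had 1038, 742, 932, 1318 and 1014 in hypertrophic and 82.4, 97.1, 116, 225 and 134 in transition arrays. Sfrp1, a secreted Wnt inhibitor, was lower in 5 of 5 animals at just under 2-fold (-0.99 ± 0.18, adjusted p = 0.000275).

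Of 16 retinoid genes 3 rose and 1 fell, where 7.45% of all genes rose and 2.42% fell. Among the rises were Rdh10, which makes retinaldehyde from retinol, and Aldh1a3, which makes retinoic acid from retinaldehyde. Aldh1a3 had signals of 5140, 5490, 5024, 3450 and 5236 in hypertrophic arrays, against 1168, 1001, 615, 991 and 1064 in transition arrays, and rose by 2.32 ± 0.37 (limma, adjusted p = 5.87e-05). Rdh10 rose by 2.02 ± 0.21 (adjusted p = 1.79e-07). Neither overlapped between zones. Aldh1a2, which carries out the same step as Aldh1a3, was not called (0.54 ± 0.38, adjusted p = 0.34). The third riser, Crabp2, and the member that fell, Rxrg, passed narrowly (adjusted p = 0.0438 and 0.0437). Crabp2 lost its call in 12 of 17 alternatives and Rxrg in 12 of 18, both without animals 3, 4 or 5, the hypertrophic array of animal 4 or the transition array of animal 5 among them, Crabp2 also without animal 1 and Rxrg also without animal 2. Cyp26b1, which degrades retinoic acid, was lower by under 2-fold (-0.79 ± 0.21, adjusted p = 0.0069). It was called lower with arrays brought to one median, with array weights, and without animal 4 or only its hypertrophic array. A second, dimmer probe set of Cyp26b1 was not called (0.40, adjusted p = 0.492). Of 13 Notch genes 1 rose, a share near the 7.45% of all genes. This was Hey1, a target of the pathway (2.07 ± 0.51, adjusted p = 0.00432), which passed the filter only through the hypertrophic arrays. Without animal 1, 3 genes of the list rose, and without animal 4, 2 did. Zfp521, which restrains chondrocyte maturation, was the member of 13 chondrocyte transcription factors that was called, falling by 1.36 ± 0.25 (adjusted p = 0.000269). That share of the list is near the 9.88% of all genes called in either direction. With arrays brought to one median 3 of the 13 fell, and 2 fell without animals 2, 3 or 5 or without the transition array of animal 5.

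**Figure D4:**
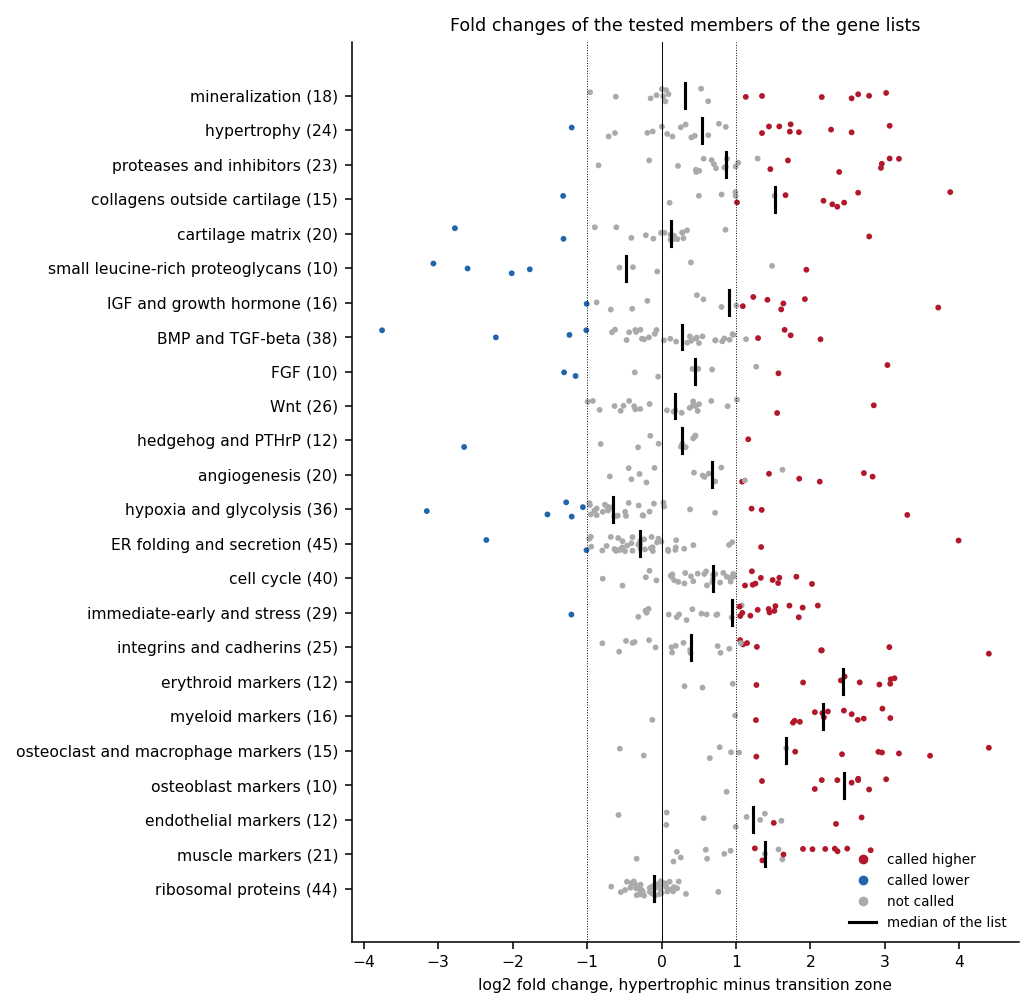
Log2 fold change, hypertrophic minus transition, of every tested member of 24 gene lists, 1 point per gene with the number of genes in brackets. Dotted lines mark 2-fold and black bars list medians, which run from -0.65 for hypoxia and glycolysis genes to 2.46 for osteoblast markers.

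Of 36 hypoxia and glycolysis genes tested, 3 rose and 5 fell, where 7.45% of all genes rose and 2.42% fell. The rises were a share near that of all genes, and the list median was -0.65. Most members moved by under 2-fold: 29 of 36 were lower in the hypertrophic zone, against 50.6% of all genes. Of the 36, 22 were lower at an adjusted p below 0.05 with no fold minimum, against 13.1% of all genes, and 12 were lower without overlap between zones, against 5.31%. With arrays brought to one median 2 rose and 13 fell, with a median of -0.92, and with quantile normalization 3 rose and 5 fell, with a median of -0.60. Without animals 2 or 3 the falls were 8 and 10. Car9, a carbonic anhydrase induced by low oxygen, had signals of 120, 17.2, 123, 72.2 and 16.5 in hypertrophic arrays, against 620, 460, 969, 354 and 895 in transition arrays. No array overlapped, at -3.15 ± 0.36 (limma, adjusted p = 7.62e-07), and the means ran 1139 ± 464 (SD, n = 5) in the resting, 1907 ± 197 in the proliferative, 660 ± 268 in the transition and 69.8 ± 52.4 in the hypertrophic zone. The promoter of Car9 is shown as a gene of the opposite direction, with the same motifs in capitals, at chr5:62558774-62559073 on the plus strand.
Car9: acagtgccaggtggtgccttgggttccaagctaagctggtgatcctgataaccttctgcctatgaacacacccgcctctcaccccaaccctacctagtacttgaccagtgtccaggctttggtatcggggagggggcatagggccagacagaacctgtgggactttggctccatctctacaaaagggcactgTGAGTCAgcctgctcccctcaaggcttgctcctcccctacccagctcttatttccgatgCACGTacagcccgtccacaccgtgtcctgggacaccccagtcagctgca
This window held 1 match each to ACGTG and TGACTCA, both on the opposite strand. Of the 5 genes of the list that fell, 4 held ACGTG in their windows, against 26% of the 8839 windows of tested genes. Among the 5 windows of risen mineralization genes, 2 held it. The list was chosen as hypoxia and glycolysis genes, so matches to a hypoxia core cannot bear on why they fell, which was not tested.

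The other falls of that list were Slc16a3, the lactate exporter, by 1.53 ± 0.25 (limma, adjusted p = 7.87e-05), Pdk1, which keeps pyruvate out of mitochondria, by 1.28 ± 0.24, Bnip3, a mitophagy receptor, by 1.21 ± 0.21, and Egln1, an oxygen-sensing prolyl hydroxylase, by 1.06 ± 0.21. Slc16a3 had 7015, 3864, 6828, 3092 and 3807 in hypertrophic and 17315, 10599, 10913, 13557 and 16500 in transition arrays, without overlap. Egln1 was under 2-fold with quantile normalization (-0.97) and without animal 5 (-0.89). Eno1, enolase, lay below every transition array in all hypertrophic arrays but did not reach 2-fold (-0.96 ± 0.14, adjusted p = 2.93e-05). The same held for Pgam1, the phosphoglycerate mutase one step before it (-0.76 ± 0.14, adjusted p = 0.000389). Both passed 2-fold with arrays brought to one median (-1.23 and -1.03), Eno1 also with quantile normalization or without animal 3. Ldha, which makes lactate, differed by -0.73 ± 0.17, and Hif1a, the hypoxia-inducible factor subunit, by -0.49 ± 0.15 (adjusted p = 0.0169). Epas1, which encodes the related subunit HIF-2 alpha, went the other way. It had 4301, 4955, 3111, 3955 and 3668 in hypertrophic arrays, against 411, 315, 459, 444 and 325 in transition arrays, a rise of 3.30 ± 0.25 (adjusted p = 1.37e-09) with no overlap and little spread in either zone. Pfkfb4, which raises glycolytic flux, rose by 1.35 ± 0.20, and Ddit4, an inhibitor of the mTOR kinase, by 1.21 ± 0.22, the last under 2-fold with arrays brought to one median (0.95).

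**Figure D5:**
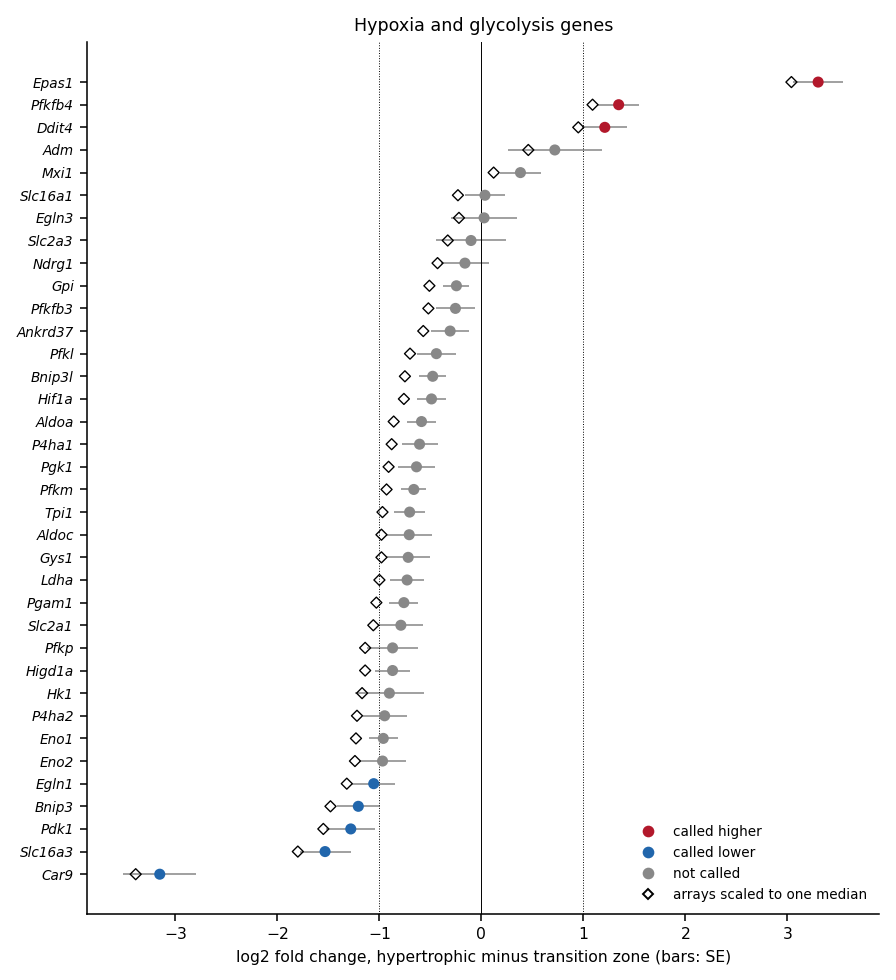
Log2 fold change, hypertrophic minus transition, of the 36 tested hypoxia and glycolysis genes, with SE bars, and the value with arrays brought to one median as open diamonds. Epas1 (3.30) and Car9 (-3.15) are the extremes, and 29 genes lie below 0 as deposited.

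Of 85 genes of the respiratory chain 1 rose and 2 fell, where 7.45% of all genes rose and 2.42% fell. The median was -0.24, and 4 fell with arrays brought to one median. The 2 that fell, Ndufa4l2 (-1.30 ± 0.20, limma, adjusted p = 4.33e-05) and Cox4i2 (-1.17 ± 0.37, adjusted p = 0.0225), encode isoforms induced by hypoxia, and the riser, Cox6a2 (2.37 ± 0.61), an isoform of muscle. Cox4i2 lost its call with no replicate block and without animals 2, 3, 4 or 5 or the hypertrophic array of animal 4. Of 45 genes of endoplasmic reticulum folding and secretion 2 rose and 2 fell, against the same shares of all genes. The rises were Ero1b and Ddit3, a transcription factor of stress (1.34 ± 0.25), and the falls P4ha3 and Edem1. With arrays brought to one median 6 fell, without animal 3, 5 fell, and without animal 1, 4 rose. P4ha3, a collagen prolyl hydroxylase, had 43.3, 106, 163, 343 and 56.8 in hypertrophic and 536, 529, 896, 516 and 794 in transition arrays (-2.35 ± 0.28, adjusted p = 1.41e-06). Edem1, which sorts misfolded glycoproteins, passed narrowly at -1.01 ± 0.19 and was under 2-fold with quantile normalization (-0.90), without animal 5 (-0.79) or without the transition array of animal 5 (-0.83), and just missed it without animal 2. The other 2 probe sets of Edem1 ran the other way and were not called (0.35 and 0.16). The hydroxylases P3h1, Plod1 and P4ha2 were lower by under 2-fold, at -0.97 ± 0.16, -0.94 ± 0.16 and -0.95 ± 0.22. Each passed 2-fold with arrays brought to one median and without animal 3.

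In the list of vessel growth 6 of 20 tested genes rose and none fell, where 7.45% of all genes rose and 2.42% fell. The list median was 0.68. Vegfa, the growth factor that draws vessels into cartilage, had signals of 3036, 2962, 2269, 3698 and 5354 in hypertrophic arrays, against 2062, 806, 1474, 1136 and 931 in transition arrays. The zones did not overlap (1.44 ± 0.31, limma, adjusted p = 0.00163). Its mean was 2489 ± 778 (SD, n = 5) in the proliferative zone, and the hypertrophic minus proliferative difference of 0.47 ± 0.31 did not pass (adjusted p = 0.258). Nrp1 and Nrp2, co-receptors of VEGF and semaphorins, rose by 2.13 ± 0.21 and 2.84 ± 0.25 (adjusted p = 2.38e-08), and Angptl4, a secreted lipase inhibitor, by 2.72 ± 0.42. Nrp1 had 12159, 9792, 7148, 8569 and 12833 in hypertrophic and 2320, 2702, 1237, 3400 and 2175 in transition arrays. Cxcl12, a chemokine of marrow stroma, rose by 1.85 ± 0.46 and was lost without animal 5 (adjusted p = 0.0523). Apln, a vessel growth peptide, rose by 1.08 ± 0.24 and lost its call in 8 of 18 alternatives, with one median (0.84) and without animals 2 (0.97) or 4 (0.88), the hypertrophic array of animal 4 (0.91) or the transition array of animal 5 (0.99) among them. The second probe set of Apln did not pass (0.25, adjusted p = 0.686). The 3 of 12 endothelial markers that rose were Emcn, Kdr and Tek. Kdr, the main VEGF receptor of endothelium, rose by 2.34 with all arrays and by 1.67 (adjusted p = 0.0445) without the hypertrophic array of animal 4. Tek lost its call in 12 of 17 alternatives, without animals 1, 2, 4 or 5, the hypertrophic array of animal 4 or the transition array of animal 5 among them, and the part of vessels in these values was not tested.

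Of 40 cell cycle genes tested 10 rose and none fell, where 7.45% of all genes rose and 2.42% fell. The list median was 0.69. Without the hypertrophic array of animal 4, 9 rose and 1 fell, and without animal 1, 15 rose. Mki67, a protein of dividing cells, had signals of 1922, 1418, 1084, 2714 and 4544 in hypertrophic arrays, against 490, 388, 484, 796 and 400 in transition arrays. All hypertrophic arrays were above all transition arrays, at 2.02 ± 0.24 (limma, adjusted p = 1.89e-06). Over the zones the means of Mki67 were 1784 ± 293 (SD, n = 5) in the resting, 3348 ± 493 in the proliferative, 511 ± 166 in the transition and 2336 ± 1378 in the hypertrophic zone. Nusap1, a spindle protein, rose by 1.58 ± 0.19, Prc1, which bundles the central spindle, by 1.57 ± 0.29, and Ccna2, cyclin A, by 1.81 ± 0.39. Mcm2, a helicase subunit of DNA replication, was not called (-0.52 ± 0.27, adjusted p = 0.174). Between the hypertrophic and proliferative arrays Nusap1 differed by -1.28 ± 0.19 and Mki67 by -0.69 ± 0.24. The mean log2 signal of the cell cycle list was highest in the hypertrophic arrays of animals 4 and 5 (9.40 and 9.13, against 8.43 to 8.63 in the other 3). These arrays were also the highest hypertrophic arrays for the myeloid list (9.62 and 9.42, against 8.11 to 8.70). The same held for other lists, among them the endothelial (8.88 and 8.34) and the integrin and cadherin list (9.42 and 8.92). On the erythroid list animal 5 had 11.41, and animals 1 and 4 both had 10.58. The part of blood cells or of any other cell type was not tested.

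Of 11 D cyclins and inhibitors of cyclin-dependent kinases 1 rose, a share near the 7.45% of all genes. This was Ccnd1, by 1.48 ± 0.27 (limma, adjusted p = 0.000275). A dimmer probe set of Ccnd1 did not pass (0.83, adjusted p = 0.139). Cdkn1a, the inhibitor p21, was higher without overlap but just under 2-fold, at a mean of 6292 ± 811 (SD, n = 5) in hypertrophic and 3245 ± 511 (n = 5) in transition arrays (0.96 ± 0.20, adjusted p = 0.000912). It passed 2-fold with quantile normalization (1.05), with array weights, and without animal 1, animal 4 or the hypertrophic array of animal 4. Cdkn1c, the inhibitor p57, was not called (0.32 ± 0.19, adjusted p = 0.242). Immediate-early and stress genes had 13 of 29 up and 1 down, where 7.45% of all genes rose and 2.42% fell. Their median was 0.94, and 8 were up with arrays brought to one median or 9 without animal 1. Gadd45g, a stress sensor of the MAP kinase pathway, had 2144, 2481, 1478, 1986 and 2696 in hypertrophic and 916, 792, 643, 700 and 825 in transition arrays (1.44 ± 0.17, adjusted p = 1.32e-06). Egr1, an early growth response factor, rose by 2.10 ± 0.38, Junb, an AP-1 subunit, by 1.90 ± 0.39, and Dusp1, a MAP kinase phosphatase, by 1.53 ± 0.28. Fos and Jun, the founding AP-1 subunits, were not called (0.41 ± 0.35 and -0.31 ± 0.27, adjusted p = 0.433 and 0.443). Myc, a growth-promoting factor, fell by 1.21 ± 0.33 (adjusted p = 0.00848), and lost its call without animal 2 (-1.18, adjusted p = 0.0516), animal 5 (-0.97) or the transition array of animal 5 (-0.91).

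Of 23 apoptosis genes 3 rose and 1 fell, the last being Bnip3, where 7.45% of all genes rose and 2.42% fell. Diablo, a mitochondrial protein that frees caspases from their inhibitors, had signals of 16913, 17661, 16561, 13587 and 22509 in hypertrophic arrays, against 7154, 7284, 4475, 7224 and 7572 in transition arrays. The zones did not overlap (1.38 ± 0.16, limma, adjusted p = 1.64e-06). Bcl2l11, the death-promoting protein Bim, rose by 2.02 ± 0.28 while its other probe set did not (0.16, adjusted p = 0.828), and Casp8 by 1.22 ± 0.31, which was under 2-fold with one median (0.98). Of 34 lysosome and autophagy genes 2 rose, a share near that of all genes. These were Ulk1, the kinase that starts autophagy, by 1.36 ± 0.16 (adjusted p = 1.35e-06), and Ctsc, a protease of immune granules, by 2.15 ± 0.57. Ctsc was lost without animal 4 (adjusted p = 0.0554), and the second probe set of Ulk1 did not pass (0.39, adjusted p = 0.523).

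Integrins and cadherins had 8 of 25 up and none down, where 7.45% of all genes rose and 2.42% fell. Their median was 0.39, and 5 were up with arrays brought to one median. Itga6, a laminin receptor chain, averaged 20111 ± 5945 (SD, n = 5) in the hypertrophic and 8870 ± 1794 (n = 5) in the transition zone (1.15 ± 0.16, limma, adjusted p = 1.64e-05), under 2-fold with arrays brought to one median (0.88). Of its other 3 probe sets 1 was called. Cdh2, N-cadherin, rose by 3.06 ± 0.54 and by 2.31 without the hypertrophic array of animal 4. Cd44, a hyaluronan receptor, rose by 2.14 ± 0.59 (adjusted p = 0.0105). Among 31 genes of ion and water transport 7 rose and 2 fell, against the same shares of all genes, with a median of 0.10. With arrays brought to one median 5 rose and 4 fell, with a median of -0.17. Piezo1, a channel opened by stretch, had 16253, 15474, 11766, 12658 and 19105 in hypertrophic and 6343, 5469, 4155, 5872 and 5895 in transition arrays, without overlap (1.43 ± 0.14, adjusted p = 1e-07). Slc4a3, an anion exchanger, rose by 2.02 ± 0.28 (adjusted p = 1.1e-05), and Atp1b1, a sodium pump subunit, by 1.25 ± 0.22, which was just under 2-fold with one median (0.98). Car2 and Car3, carbonic anhydrases found in osteoclasts and red cells and in muscle and fat, rose by 2.42 ± 0.28 and 3.13 ± 0.68, while Car9 and Car8 fell. The second probe set of Car3 did not pass (0.91, adjusted p = 0.411), and Car3 rose by 2.33 without the hypertrophic array of animal 4.

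Among 23 glycan enzymes 2 rose and 3 fell, where 7.45% of all genes rose and 2.42% fell. The rises, a share near that of all genes, were the sialyltransferases St6galnac2 and St6gal1 (1.75 ± 0.40, limma, adjusted p = 0.00232). The 3 that fell build heparan or chondroitin sulphate: Extl1 by 1.28 ± 0.18 (adjusted p = 1.4e-05), Ext2 by 1.04 ± 0.17 and Chst12 by 1.70 ± 0.33. With arrays brought to one median 6 of the 23 fell. Ext2 was under 2-fold with quantile normalization (-0.92), without animal 5 (-0.77) and without the transition array of animal 5 (-0.92). Fam20b, the kinase that starts glycosaminoglycan chain extension on proteoglycans, had 1845, 2692, 3029, 1513 and 2417 in hypertrophic and 5725, 5332, 5502, 3982 and 6064 in transition arrays (-1.24 ± 0.14, adjusted p = 7.73e-07). Of its other 3 probe sets 1 was called. Papss2, which makes the sulphate donor, and Ugdh, which makes the glucuronic acid donor, were lower by under 2-fold in 5 of 5 animals (-0.80 ± 0.15 and -0.92 ± 0.17), and both passed 2-fold with arrays brought to one median. A second probe set of Papss2 fell by 1.09 (adjusted p = 0.00973).

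Among marker genes of other cells, Hbb, a haemoglobin chain, had signals of 22234, 17048, 7486, 15644 and 19959 in hypertrophic arrays, against 4502, 3652, 800, 3845 and 1659 in transition arrays (2.66 ± 0.29, limma, adjusted p = 4.74e-07). Klf1 and Ahsp, which act in red cell precursors, rose by 3.07 ± 0.47 and 3.13 ± 0.45. Rac2, a small GTPase of blood cells, had 1133, 1035, 870, 4107 and 1125 in hypertrophic and 300, 203, 67.7, 218 and 71.8 in transition arrays (3.07 ± 0.48). Ctsk, the collagen-degrading protease of osteoclasts, had 1120, 693, 2505, 28896 and 1123 in hypertrophic and 264, 113, 792, 495 and 140 in transition arrays, with overlap. It rose by 2.96 ± 0.72 (adjusted p = 0.0039), and by 1.95 (adjusted p = 0.0102) without the hypertrophic array of animal 4. Skeletal muscle markers had 10 of 21 up and none down, where 7.45% of all genes rose and 2.42% fell. Only 4 were up without the replicate block, and 4 without animal 5. The mean log2 signal of the muscle list ran between 8.81 and 10.11 in hypertrophic arrays and between 7.85 and 8.83 in transition arrays. The 44 ribosomal protein genes had a median of -0.10 that was -0.38 with arrays brought to one median. Of 37 proteasome genes 2 rose, where 7.45% of all genes did. These were Psmb8 (2.90 ± 0.64) and Psmb9, subunits of the immunoproteasome, and both passed the filter only through the hypertrophic arrays. The Psmb9 call was lost in 5 of 17 alternatives, without animals 1 or 3, the hypertrophic array of animal 4 or the transition array of animal 5 among them.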

How the data were processed

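Per the labels, RNA from microdissected zones was amplified over 2 rounds, labelled with biotin and hybridized to Affymetrix rat arrays. The deposited intensities are linear MAS5 signals (submitters' processing notes; version not given in the sources used here), and no further normalization was applied. Of 31099 probe sets 57 were controls, and 19213 were tested because they exceeded the array median in at least 4 arrays. Of these, 13956 carry 1 gene symbol, 323 several and 4934 none, and 13916 of the symbols matched the current gene table. log2(signal + 16) of all 24 arrays was fitted with limma 3.58.1 in R 4.3.3, with zone and animal as terms, a mean-variance trend and Benjamini-Hochberg adjustment over all tested probe sets. Adjusted p-values come from this fit or, where the text names a setting or a left-out animal or array, from the same model under it. A gene stands for its brightest tested probe set. Python 3.11.15 with pandas 2.3.3, numpy 2.4.6 and matplotlib 3.10.9 made counts and figures.

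The labels' descriptions name the animal of every array, so it was kept as a block. The correlation of deviations between the hypertrophic and transition arrays of an animal ran from -0.076 to 0.25, with a median of 0.126. Between animals it ran from -0.261 to 0.168, with a median of -0.054, so the ranges overlapped. On simulated data of 19213 probe sets the fit recovered 81 of 100 probe sets changed 3-fold and 98 of 100 changed 6-fold, with 7 false calls. The simulated noise was normal, with the same spread in every array for a probe set. In the data, hypertrophic arrays differed more among themselves than transition arrays (medians 0.80 and 0.66), and 9.27% of probe sets were called. The simulated counts therefore need not hold for this comparison. The 5 arrays per zone limit the precision. Genes named were the 15 largest rises and 15 largest falls with the same direction in 5 of 5 animals, and list members in order of adjusted p with defining members that did not pass. The comparison, its gene lists and its alternatives were chosen with earlier results of these data known, and the pattern that picks ribosomal protein genes was changed after values were seen.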

Additional observations from a re-analysis of the deposited data

Results flagged for a closer look

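In 31 of 350 groups of 5 arrays, counted over the genes named, the highest or the lowest array lay far from the other 4 on the log2 scale. Chance flags about 1 in 20 groups. The hypertrophic array of animal 4 was the far high array in 9 of them, with signals of 21853.3 for Spp1, 2495.9 for Col22a1, 2902.4 for Ptprz1, 26297.3 for Acp5, 1161.2 for Igfbp7, 969.8 for Bmp3, 1011.0 for Bcl2l11, 1749.8 for Cdh2 and 4107.0 for Rac2. It was the far low array in 3, with 6203.6 for Ihh, 1641.0 for Igf1r and 3449.7 for Aldh1a3. Among the other hypertrophic arrays, that of animal 3 was low for Fgfr1 (1712.8) and Car2 (945.6), that of animal 2 low for Bmper (9.1), that of animal 1 high for Ddit3 (1784.3), and that of animal 5 high for Sfrp1 (219.2) and low for Psmb9 (24.9).

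Among transition arrays, that of animal 1 was high for Ibsp (6228.1) and low for Col22a1 (58.3), Igfbp7 (81.9), Bmper (305.7) and Tek (30.4). The transition array of animal 2 was low for Ptprz1 (9.7). That of animal 3 was high for Fgfr4 (416.0) and low for Aldh1a3 (614.7) and Diablo (4474.6). That of animal 4 was high for Nrp2 (509.4) and low for Igfbp6 (25.4), and that of animal 5 was low for Boc (105.3) and Ccnd1 (150.6).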

How the results depend on the processing

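The count of probe sets that rose stayed within 1.5 times 1303, and that of probe sets that fell within 1.5 times 478, except as follows. With arrays brought to one median 1163 fell, and the median log2 difference over all probe sets was -0.241, against 0.016 as deposited. With quantile normalization that median was -0.083. With probe sets above the 75th percentile of the array in at least 4 arrays 652 rose, with a median of -0.090, and fewer probe sets were tested. With no fold minimum 2201 rose and 2107 fell, and with a fold minimum of 4, 326 rose and 37 fell. Leaving out 1 animal, or only its hypertrophic array (animal 4) or transition array (animal 5), gave between 1003 and 1331 rises, between 425 and 598 falls and medians between -0.018 and 0.052. With no replicate block, that is without pairing by animal, 1205 rose and 445 fell. Of 141 named genes that were called, 111 kept the call in every alternative with the 2-fold minimum, 30 lost it in at least 1, 25 of these without 1 animal or array, and none reversed. Of the 34 named genes that were not called, 12 gained a call in at least 1. Adding 64 or 1 to the signal in place of 16 moved the change of dim genes most, as for Igf1 between 2.70 and 4.37 and Cfap100 between 3.19 and 5.98. Of 1762 list counts over the alternatives 1579 were within 1.5 times their value. The cause of these changes was not tested except where the alternative's construction gives it. Without detection p-values, signal over background limits what can be said of dim genes.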
